A study of Mus musculus with 12 samples.

Results

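The genes of the proteasome were followed through 12 RNA-seq libraries of mouse regulatory T cells (Tregs), the CD4+ T cells that restrain immune responses. Members were the rows of the deposited count table whose symbol starts with Psma, Psmb, Psmc, Psmd, Psme, Psmf or Psmg followed by a number, without pseudogene names and with a count above 0 in any library. This rule took 49 of 26609 genes. Of these, 48 encode subunits, activators, an inhibitor or assembly chaperones of the proteasome. The last, Psmc3ip, shares only the letters of its symbol; its product is a cofactor of meiotic recombination. It stays in the counts of members below and is described once.

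The cells were CD4+CD25hiCD127lo singlets that had been sorted from mesenteric lymph nodes of untreated mice. All 4 groups were of the SAMP/YitFC line, in which ileitis arises spontaneously. They were wild type (SAMP-WT, here WT) or without estrogen receptor beta in the whole body (SAMP-ERb-KO, here KO; gene Esr2) and labelled male or female, with 3 libraries a group. Age is not given, nor whether every library was made from its own mouse. The p-values therefore measure the spread between these libraries, which may be technical. The design of the Esr2 allele is not given either. The study set sex against presence of the receptor.

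Total counts were 13.4 to 16.75 M per WT library and 10.2 to 14.79 M per KO library. Counts of Esr2 did not follow the genotype labels: they were 0 to 159 in WT and 2 to 161 in KO libraries, and the gene-level count does not show which exons were read. Xist and Y-linked counts went against the labelled sex in 4 libraries (WT female 2, KO male 1, KO male 2 and KO female 1). Groups below are therefore groups as labelled, and results are also given without those 4 libraries where that changes them. The Treg transcript Foxp3 lay between 583 and 926 CPM (counts scaled to library size) in all 12 libraries. Summed Treg markers (6 genes, Foxp3 among them) ranged from 3016 to 4217 CPM in WT and from 3728 to 4394 CPM in KO libraries. Of these markers, Ikzf2 was uneven. It stood at 98.5 CPM in KO female 3, 124 in KO male 2 and 131 in KO female 1, and between 240 and 476 CPM in the other libraries. Summed B cell markers (10 genes) ranged from 39.95 to 227.5 CPM in WT and from 175.9 to 405.6 CPM in KO libraries, and 7 of the 10 rose in KO over the sexes (edgeR, adjusted p under 0.05). Summed neutrophil markers (7 genes) ranged from 0 to 1.003 CPM in WT and from 1.858 to 51.07 CPM in KO libraries, and 4 rose. No B cell or neutrophil marker was at 0 in all WT libraries.

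The proteasome is the protease that degrades proteins tagged with ubiquitin. Its barrel, the 20S core, stacks outer rings of alpha subunits, which gate the entrance, on inner rings of beta subunits, which cut the substrate. The 19S regulatory particle caps the barrel: its base holds ATPases that unfold substrates, and its lid holds a subunit that removes ubiquitin. Cells of the immune system, and other cells under interferon gamma, build an immunoproteasome in which Psmb8, Psmb9 and Psmb10 take the places of the constitutive catalytic subunits Psmb5, Psmb6 and Psmb7. The exchange alters which peptides are cut for display on MHC class I. Lymphocytes are known for a high share of immunoproteasome.

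The promoters of the catalytic subunits that replace each other are shown first, because the exchange pairs are the members whose relative levels define the 2 forms of the particle. Each window runs from 250 bases before to 50 bases after a RefSeq start site of GRCm38.p6, 5′ to 3′ on the gene's strand, in the reference strain and not in SAMP/YitFC. They lie at chr17:34197945-34198244 (plus strand), chr14:54617946-54618245 (minus), chr17:34187281-34187580 (minus), chr11:70525107-70525406 (plus) and chr8:105938343-105938642 (minus); Psmb7 is named only. Those of Psmb8 and Psmb9 start within the GENCODE gene, not at its outermost end. Capitals mark a match to a searched motif.
Psmb8: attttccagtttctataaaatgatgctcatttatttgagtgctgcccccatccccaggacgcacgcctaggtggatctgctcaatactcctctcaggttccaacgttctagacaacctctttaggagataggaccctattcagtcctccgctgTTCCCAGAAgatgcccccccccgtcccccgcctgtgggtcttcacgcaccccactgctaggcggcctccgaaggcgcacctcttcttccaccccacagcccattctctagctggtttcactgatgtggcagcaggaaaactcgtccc
Psmb5: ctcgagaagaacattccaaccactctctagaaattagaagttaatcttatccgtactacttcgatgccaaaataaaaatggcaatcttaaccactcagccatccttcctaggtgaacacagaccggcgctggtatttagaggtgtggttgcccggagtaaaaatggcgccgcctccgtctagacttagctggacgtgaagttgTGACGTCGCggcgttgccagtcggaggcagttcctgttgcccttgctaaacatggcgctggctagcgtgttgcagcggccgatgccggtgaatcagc
Psmb9: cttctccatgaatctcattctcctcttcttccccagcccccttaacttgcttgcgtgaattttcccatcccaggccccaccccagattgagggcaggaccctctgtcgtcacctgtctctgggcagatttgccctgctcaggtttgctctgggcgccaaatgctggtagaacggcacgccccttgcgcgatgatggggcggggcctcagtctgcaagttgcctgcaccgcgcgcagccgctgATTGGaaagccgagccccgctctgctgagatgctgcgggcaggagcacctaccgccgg
Psmb6: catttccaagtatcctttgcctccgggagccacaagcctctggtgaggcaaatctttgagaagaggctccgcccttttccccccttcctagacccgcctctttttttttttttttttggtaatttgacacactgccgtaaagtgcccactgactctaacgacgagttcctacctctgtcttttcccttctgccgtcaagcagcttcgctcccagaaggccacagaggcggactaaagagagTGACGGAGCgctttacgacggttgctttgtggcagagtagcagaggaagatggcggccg
Psmb10: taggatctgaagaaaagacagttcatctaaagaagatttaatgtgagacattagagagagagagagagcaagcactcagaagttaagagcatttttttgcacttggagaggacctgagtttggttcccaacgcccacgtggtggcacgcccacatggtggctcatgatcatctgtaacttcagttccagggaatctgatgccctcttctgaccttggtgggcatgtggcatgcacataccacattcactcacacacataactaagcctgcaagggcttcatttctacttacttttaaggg

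In capitals, Psmb5 and Psmb6 hold TGACNNNGC, the core of the antioxidant response element, the site of Nfe2l1 and Nfe2l2, which are known to drive proteasome genes when the particle is inhibited. Psmb8 holds TTCNNNGAA, the form of a STAT site, and Psmb9 holds ATTGG, the reverse of the NF-Y site CCAAT. Psmb10 holds none of the 4 motifs searched in this window. On both strands, TGACNNNGC was present for 6 of the 40 proteasome genes with a window (15%) and for 13.99% of all 27025 genes. TTCNNNGAA was present for 3 of 40 (7.5%) and 9.554% of all genes, CCAAT for 14 of 40 (35%) and 41.06%. GAAANNGAA, the core of the interferon-stimulated response element, was present for 7 of 40 (17.5%) and 9.761%; among them were Psme1, Psmb4 and Psmd4. These matches are letters in a window and say nothing of binding.

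Proteasome genes were abundant in every library. The 46 genes summed (all but Psmb11, Psma8 and Psmc3ip) took 0.705 to 0.981% of the scaled counts, with a mean of 8537 ± 875 CPM (SD, n = 12). Library sizes behind all CPM were scaled with the TMM method of edgeR. The 17 genes of the 19S particle summed to 3227 ± 356 CPM, the 11 alpha and non-catalytic beta genes of the core to 2057 ± 266 CPM, and the 3 immunoproteasome genes to 1450 ± 175 CPM. The 3 constitutive catalytic genes summed to 301 ± 39.2 CPM, and the PA28 activator genes Psme1 and Psme2 to 694.5 ± 89.2 CPM.

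Between genes, levels were compared per kilobase of exon. Psmb8 had the highest level of all members, 287.5 ± 36.56 CPM per kb over the union of its exons (SD, n = 12), and it ranked first also with the principal transcript (597 ± 75.9) or the coding length (1174 ± 149). Next came the PA28 pair, Psme1 at 175.4 ± 20.3 and Psme2 at 174.0 ± 26.8 CPM per kb, which did not differ beyond their spread over exons. With the coding length Psme1 stood at 1.22 ± 0.0832 times Psme2, above it in 12 of 12 libraries, and with the principal transcript at 1.10 ± 0.0750 times, above it in 11. Psmb2, a non-catalytic beta subunit, followed at 172.1 ± 22.7 over exons, within the spread of the PA28 pair on that scale. Exons of Psmb8 and Psme1 overlap those of Gm20496 and Emc9 on the opposite strand. The library kit does not mark strand, so reads in those overlaps cannot be assigned with certainty.

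In several other classes the order depended on the length used. Over the union of exons, the highest and lowest alpha genes were Psma6 (141 ± 27.3 CPM per kb) and Psma8 (0.265 ± 0.189), a testis form of the ring. The non-catalytic beta genes ran from Psmb2 down to Psmb1 (42.5 ± 5.58), the 19S ATPases from Psmc5 (124 ± 18.7) to Psmc6 (20.7 ± 2.73), and the other 19S subunits from Psmd2 (112 ± 21.9), a scaffold of the base, to Psmd13 (32.4 ± 5.5). With the principal transcript, Psma7 (276 ± 33.1), Psmc3 (139 ± 22.5) and Psmg2 (41.6 ± 5.97) led their classes in place of Psma6, Psmc5 and Psmg4, and Psmb4 (84.7 ± 15) took the lowest place of Psmb1. Over exons, Psmd10 and Psmd9 bounded the assembly chaperones of the 19S base at 36.4 ± 5.10 and 4.19 ± 0.591 CPM per kb. Psmg4 and Psmg3 bounded those of the core at 35.9 ± 7.76 and 8.61 ± 1.49. On that scale the means of Psmd10 and Psmg4 lay above those of the subunits Psmd13 and Psmc6, though within the spread of Psmd13. With the principal transcript Psmd13 (54.95) lay above Psmd10 (37.4) and Psmg4 (35.9). With the coding length Psmd13 (96.9) again lay above Psmd10 (77.2) and Psmg4 (54.0), and Psmc6 (62.0) lay above Psmg4. With the coding length Psmd5 (98.6 ± 16.75) and Psmg3 (68.0 ± 11.8) led the chaperone classes. Psme4, the large activator PA200, was at 5.62 ± 1.35 and the inhibitor Psmf1 at 12.7 ± 1.55.

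**Figure D1:**
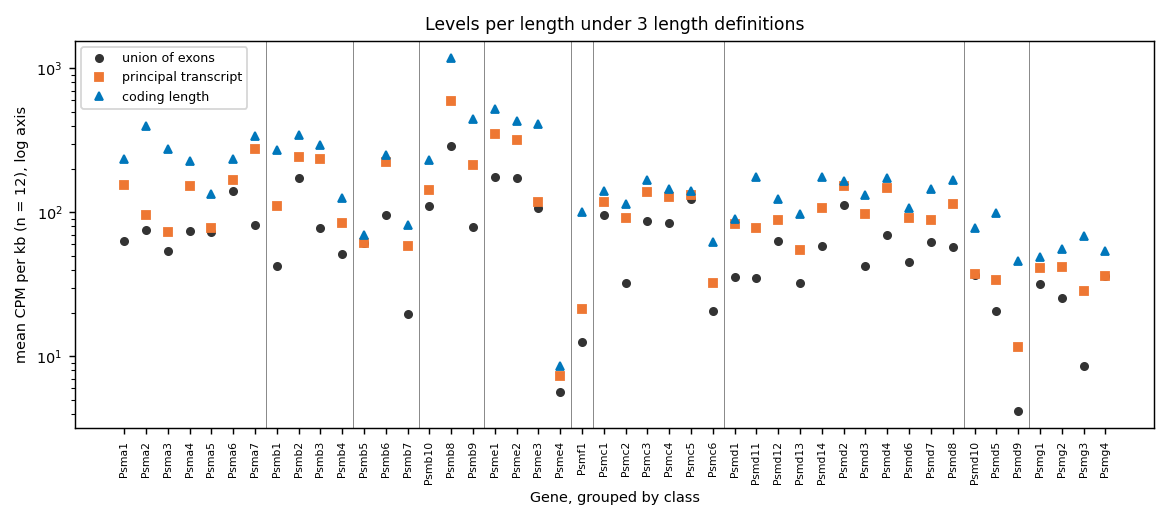
Mean level of each proteasome gene over 12 libraries in CPM per kb (log axis), under 3 definitions of gene length (circles, union of exons; squares, principal transcript; triangles, coding length), with genes on the horizontal axis grouped by class. Psmb8 is highest under each definition, at 287.5, 597 and 1174 CPM per kb; Psma8 and Psmb11, near 0, and Psmc3ip are not drawn.

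Members outside the somatic particle were low. Psmb11, the catalytic subunit of the thymoproteasome of cortical thymic epithelium, had 2 counts in WT female 3, 2 in KO female 1 and 0 elsewhere; it did not pass the filter on low counts. Psma8 had 0 to 18 counts a library. Psmc3ip lay between 4.48 and 9.21 CPM.

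Among the catalytic genes, Psmb8 encodes the immune chymotrypsin-like subunit (LMP7), on chromosome 17 at 34197721 to 34201454 (GRCm38). It stood at 1168, 1199 and 962 CPM in WT males 1 to 3, at 882, 895 and 884 in WT females, at 950, 941 and 809 in KO males and at 905, 945 and 1124 in KO females. WT males 1 and 2 and KO female 3 were high; all WT males lay above all WT females and above all KO males. Its constitutive counterpart Psmb5 (chromosome 14, 54614119 to 54618022) stood at 67.2, 56.5 and 50.8 CPM in WT males, 52.2, 49.5 and 42.7 in WT females, 55.3, 72.3 and 39.2 in KO males and 59.3, 46.0 and 65.7 in KO females. For Psmb5 every group overlapped every other, with the highest and the lowest library both among KO males.

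Psmb9 (LMP2, chromosome 17, 34181987 to 34187764) replaces the caspase-like subunit. It stood at 308, 326 and 250 CPM in WT males, 283, 246 and 255 in WT females, 313, 281 and 280 in KO males and 260, 301 and 383 in KO females, so that KO female 3 was highest and the groups overlapped. Its exons overlap those of Tap1 on the opposite strand and the library kit does not mark strand, so reads there cannot be assigned with certainty. Psmb6 (chromosome 11, 70525367 to 70527858), which Psmb9 replaces, stood at 210, 194 and 159 CPM in WT males, 152, 169 and 134 in WT females, 188, 200 and 150 in KO males and 198, 204 and 194 in KO females. All 3 KO females lay above all 3 WT females.

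Psmb10 (MECL-1, chromosome 8, 105935735 to 105938444) replaces the trypsin-like subunit Psmb7. It stood at 219, 208 and 166 CPM in WT males, 160, 156 and 167 in WT females, 208, 193 and 187 in KO males and 182, 174 and 239 in KO females, again highest in KO female 3. WT females were the lowest group and lay below all KO females and all KO males. Psmb7 (chromosome 2, 38588036 to 38644087), some of whose exons overlap Nek6, stood at 71.9, 80.9 and 63.8 CPM in WT males, 58.7, 67.6 and 63.6 in WT females, 73.3, 81.5 and 59.5 in KO males and 68.7, 46.3 and 74.7 in KO females; its groups overlapped.

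**Figure D2:**
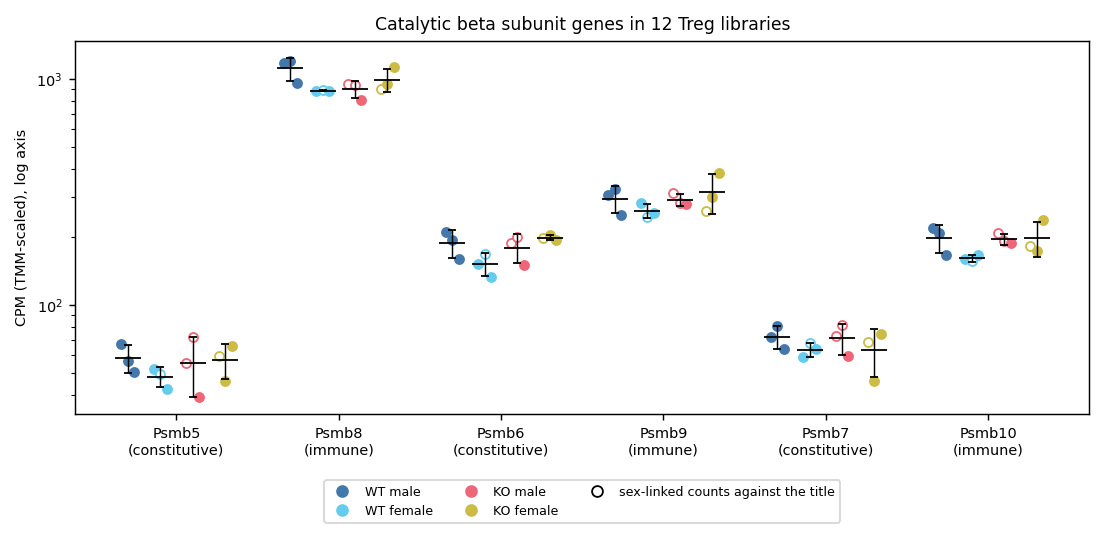
CPM (TMM-scaled, log axis) of the 3 constitutive catalytic genes and the 3 immunoproteasome genes that replace them, 1 point per library by labelled group, with the group mean (line) and SD (bars, n = 3); open points are the 4 libraries whose sex-linked counts went against the title. Psmb8 sits between 809 and 1199 CPM and Psmb5 between 39.2 and 72.3 CPM in all 12 libraries.

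Immune subunits exceeded their counterparts in 2 of the 3 pairs, whichever length was used. The level of Psmb8 per length was 4.81 ± 0.659 times that of Psmb5 over exons (SD, n = 12; 3.46 to 5.65), 9.99 ± 1.37 times with the principal transcript and 17.3 ± 2.37 times with the coding length. Psmb10 stood at 5.65 ± 0.815 times Psmb7 over exons, and at 2.49 ± 0.360 and 2.86 ± 0.412 times with the other lengths. The pair Psmb9 and Psmb6 had no fixed order: the ratio was 0.838 ± 0.114 over exons, 0.967 ± 0.131 with the principal transcript and 1.78 ± 0.241 with the coding length, above 1 in 1, 4 and 12 of the 12 libraries. The summed CPM of the immune genes was 4.84 ± 0.442 times that of the constitutive genes (4.0 to 5.44), without a correction for length.

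Within a library the ratio of counts needs no scaling, so the exchange pairs were compared between groups on that ratio. The count ratio of Psmb8 to Psmb5 was 17.3 ± 2.98 in KO (SD, n = 6; 13 to 20.6) and 18.9 ± 1.77 in WT libraries (n = 6; 16.9 to 21.2), a log2 difference of -0.14 (two-sided exact permutation p = 0.26, adjusted p = 0.779 over 6 such tests). That of Psmb9 to Psmb6 was 1.62 ± 0.264 in KO and 1.66 ± 0.195 in WT (exact permutation, adjusted p = 0.899). That of Psmb10 to Psmb7 was 2.99 ± 0.483 in KO and 2.65 ± 0.243 in WT, a log2 difference of 0.17 (exact permutation p = 0.165, adjusted p = 0.779). Between the labelled sexes the log2 differences were 0.01, 0.04 and 0.05 (exact permutation, adjusted p = 0.933, 0.899 and 0.899). None of the 6 differences exceeded the spread between libraries; 6 against 6 libraries allow an exact p of 0.00216. Without the 4 libraries against their labelled sex the KO minus WT difference of the first pair was 0.03 and that of the second was 0.06, both of the opposite sign.

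The activators bind the ends of the barrel in place of the 19S cap. Psme1 and Psme2 encode PA28 alpha and beta, which form 1 ring and are induced by interferon gamma. Psme1 stood at 449, 438 and 346 CPM in WT males, 339, 341 and 321 in WT females, 409, 390 and 380 in KO males and 403, 379 and 454 in KO females. Psme2 stood at 364, 408 and 291 CPM in WT males, 256, 255 and 268 in WT females, 319, 298 and 287 in KO males and 286, 292 and 359 in KO females. For each gene of the pair WT females were the lowest group, below every library of the other 3 groups, and WT males 1 and 2 and KO female 3 were high. Psme3, the nuclear PA28 gamma, lay between 200 (KO male 1) and 354 CPM (WT female 2), with the next library at 270 CPM. Psme4 lay between 23.8 CPM in WT male 1 and 72.5 CPM in KO male 3, with the other 10 libraries between 37.1 and 56.6.

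Of the member pairs, 3 were tested for correlation across libraries. Other members also shifted by library together (below), so these correlations are not called particular to the pairs. On log2 CPM, Psme1 and Psme2 had r = 0.882 (n = 12, permutation p = 0.00014, adjusted p = 0.00042 over 3 relations; Spearman's rho = 0.853, permutation p = 0.00096). Psmb8 and Psmb10 had r = 0.714 (permutation p = 0.00898, adjusted p = 0.0135; rho = 0.622, permutation p = 0.0346), and Psmb8 and Psmb9 had r = 0.681 (permutation p = 0.0154, adjusted p = 0.0154; rho = 0.601, permutation p = 0.0436). Without WT female 3 and KO female 3, the libraries farthest from the median of Psme1, the PA28 pair kept r = 0.881 (n = 10, permutation p = 0.00066). Without WT males 1 and 2, the farthest from the median of Psmb8, r was 0.643 with Psmb10 (n = 10, permutation p = 0.0524, adjusted p = 0.0524) and 0.698 with Psmb9 (permutation p = 0.0438, adjusted p = 0.0524). The rank correlations then fell short of the threshold, with rho = 0.442 for Psmb10 (permutation p = 0.207) and 0.382 for Psmb9 (permutation p = 0.276). Within the 6 WT libraries the 3 values of r were 0.938, 0.959 and 0.838 (exact permutation, adjusted p = 0.0486 for each), in the order given above. By rank these WT relations fell short of the threshold, with rho = 0.714, 0.657 and 0.486 (exact permutation, adjusted p = 0.262, 0.262 and 0.356). Within the 6 KO libraries r was 0.918, 0.744 and 0.841 (exact permutation, adjusted p = 0.0875, 0.113 and 0.0875). There rho was 0.6, 0.6 and 0.943 (exact permutation, adjusted p = 0.242, 0.242 and 0.05). Depth and scaling are shared by all genes of a library.

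The 19S particle varied most among the labelled KO males (3014 ± 662 CPM, SD, n = 3). Its sum ran from 2534 CPM in KO male 3 and 2738 in KO male 1 to 3769 in KO male 2, so this group held both ends of the range. WT libraries lay between 2969 and 3642 CPM and KO females between 3166 and 3463. KO male 3 was also the shallowest library, at 10.2 M counts; the part of depth was not tested.

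Psmd2 spread most among the abundant subunits of the cap. It stood at 484, 422 and 492 CPM in WT males, 501, 469 and 461 in WT females, 270, 551 and 287 in KO males and 515, 451 and 524 in KO females. KO males 1 and 3 lay below all other libraries and KO male 2 above all. Psmd4, a receptor for ubiquitin chains, lay between 157 (KO male 3) and 231 CPM (WT male 2), and Psmd14, the lid enzyme that removes ubiquitin chains, between 124 (KO male 3) and 192 CPM (WT male 2). Psmd5, a chaperone of base assembly, stood at 189, 136 and 178 CPM in WT males, 155, 152 and 164 in WT females, 115, 158 and 95.9 in KO males and 149, 141 and 156 in KO females, lowest again in KO males 3 and 1. Psmf1, the inhibitor PI31, lay between 60.3 (KO male 3) and 95.8 CPM (WT male 2).

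Across libraries the members shifted largely as a block. The median over the 46 genes of log2 CPM minus the gene's mean was 0.23 in WT male 1, 0.18 in WT male 2, 0.18 in KO male 2 and 0.12 in KO female 3, and -0.27 in KO male 3 and -0.16 in WT female 3. In KO male 3 the medians of the core (-0.31), the 19S particle (-0.32) and the constitutive catalytic genes (-0.24) were low. Those of the immunoproteasome (-0.04) and of PA28 (-0.05) were nearer the gene means. The immune genes were not alike there, with Psmb8 at -0.25, Psmb9 at -0.04 and Psmb10 at 0.004. Their sum in KO male 3, 1276 CPM, was the lowest of the 12 libraries. The sum of the 19S genes was 1.99 times that of the immune genes in KO male 3 and between 1.86 and 2.66 times over all libraries. In KO female 3 the immunoproteasome (0.36) and PA28 (0.24) stood above the 19S particle (0.10). The members varied less than other genes: the median SD of log2 CPM over libraries was 0.206 for the 47 members with no zero count and 0.340 for 12408 such genes in all, which were not matched for level.

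**Figure D3:**
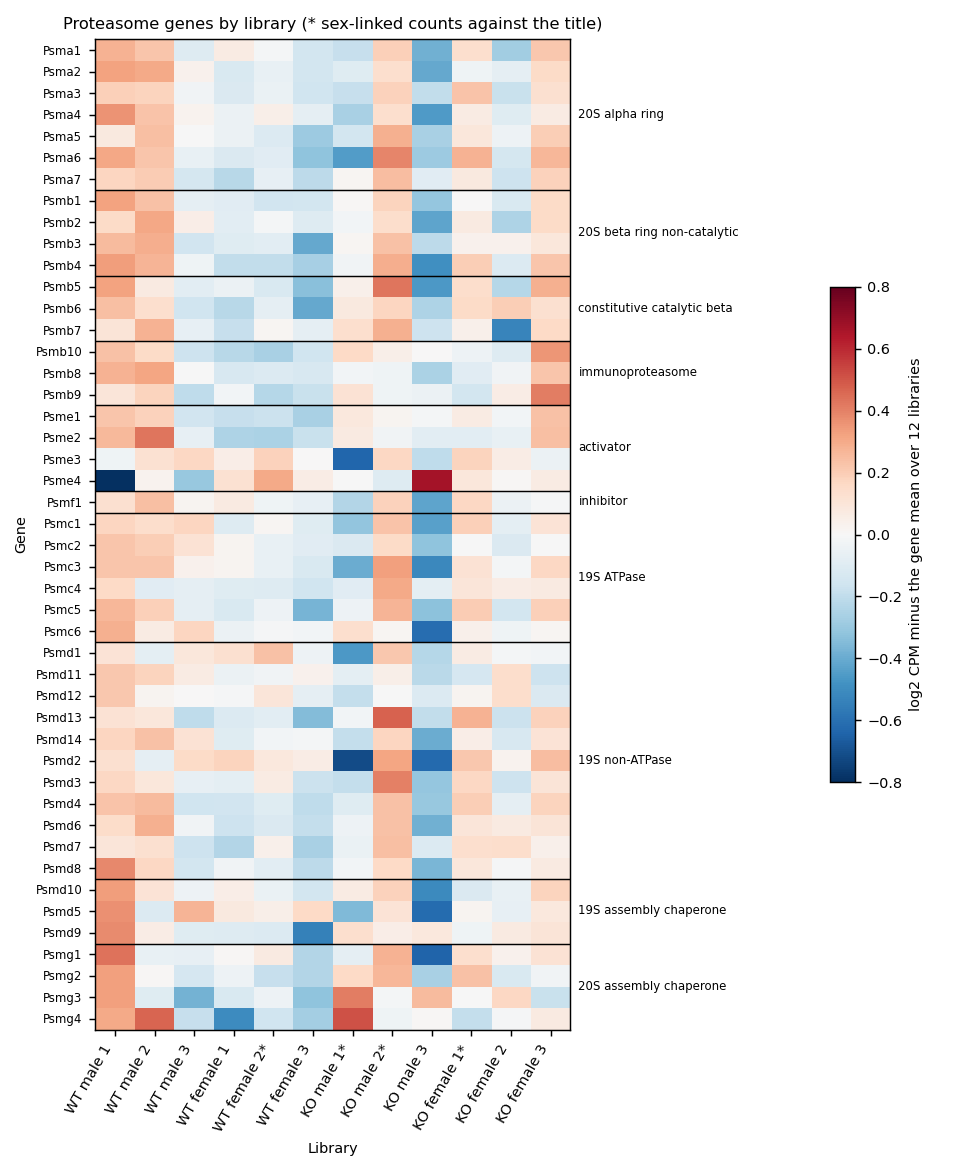
Log2 CPM minus the mean of each gene over 12 libraries (colour, red above and blue below) for 46 proteasome genes in rows, grouped by class, and libraries in columns; asterisks mark the 4 libraries whose sex-linked counts went against the title. WT males 1 and 2 are red across most classes and KO male 3 is blue in the core and 19S classes, with medians over all genes of 0.23, 0.18 and -0.27.

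**Figure D4:**
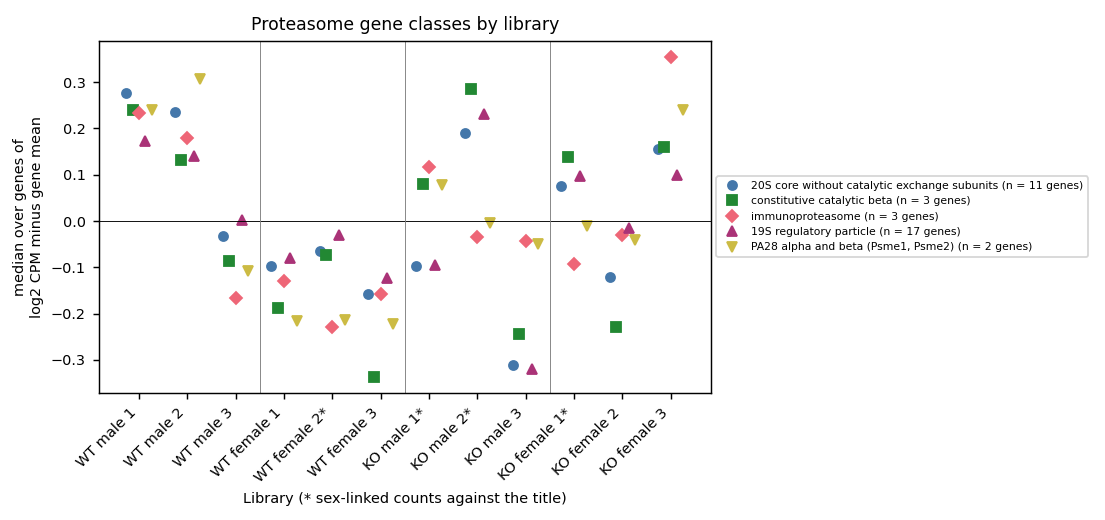
Median over the genes of a class of log2 CPM minus the gene's mean (vertical axis), by library (horizontal axis, 4 groups divided by lines), for 5 classes. In KO male 3 the core and 19S medians are -0.31 and -0.32 while the immunoproteasome median is -0.04. The last is the middle of 3 genes, of which Psmb8 is at -0.25.

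For KO minus WT with the sexes averaged, 6 against 6 libraries, no member passed the test. In edgeR's quasi-likelihood test 0 of 48 members passed an adjusted p of 0.05, against 206 of 13692 genes tested (1.5%). With 1 library left out at a time, 0 members passed in all 12 fits, while the genes called in all ranged from 12 (without KO female 3) to 543 (without KO male 2). At an unadjusted p under 0.05 there were also 0 members, against 15.9% of all genes. Members were split evenly, 26 above and 22 below 0 (54.2% above, against 52.2% of all genes). Their median log2 fold change was 0.02 (0.02 over all genes). For 0 members did the 6 KO libraries all lie on 1 side of the 6 WT libraries (2.4% of all genes). The smallest p belonged to Psmd5, with a log2 fold change of -0.26 ± 0.13 (SE; edgeR adjusted p = 0.339), to Psma4 of the alpha ring (-0.17 ± 0.12) and to Psmd13 (0.20 ± 0.13). Without the 4 libraries against their labelled sex 14 members were above 0 and the median was -0.15. That fit leaves KO male 3, the library with the lowest proteasome sum, as the only KO male. Without KO male 2 alone 16 were above 0. Psmb8 was at -0.07 ± 0.10, Psmb9 at 0.13 ± 0.12 and Psmb10 at 0.14 ± 0.11. Beside these values the B cell markers, cells that also build immunoproteasome, rose in KO as given above; their part was not tested. Fewer cells of a type and less RNA per cell cannot be told apart in these bulk libraries.

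In females most members were higher in KO, by amounts that did not pass. Of 48 members 41 were above 0 (51% of all genes tested), with a median log2 fold change of 0.16 against 0.01 over all genes. In edgeR 0 members and 0 genes in all (0%) passed an adjusted p of 0.05; at an unadjusted p under 0.05 there was 1 member, against 7.71% of all genes. The smallest p belonged to Psmb6 (0.39 ± 0.16, a fold of 1.31; edgeR adjusted p = 0.603), Psme1 (0.30 ± 0.14) and Psmb10 (0.30 ± 0.16). For 14 members all 3 KO females lay above all 3 WT females, against 9.2% of genes in that direction and 21% in either. They included Psmb6, Psmb8, Psmb10, Psme1, Psme2 and, of the 19S particle, Psmd4. No member lay wholly below. By class, the medians were 0.27 for the immunoproteasome (3 of 3 above 0), 0.19 for non-catalytic beta (4 of 4), 0.14 for 19S ATPases (6 of 6) and 0.10 for other 19S subunits (9 of 11). Members rise and fall by library together, as shown above, so these counts are not independent of each other. The median deviation over the 46 genes was 0.08, -0.05 and 0.12 in KO females 1 to 3. It was -0.09, -0.06 and -0.16 in WT females 1 to 3, so KO female 2 was level with WT female 2. KO female 1 and WT female 2 went against their labelled sex. With limma voom and quality weights per library, 7 members passed (Psmb6, Psmb4, Psme1, Psma6, Psmd13, Psmd4 and Psmc5, log2 fold changes 0.32 to 0.41), among 1697 genes called in all (12.4%).

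In males most members were lower in KO, again without passing. Of 48 members 41 were below 0 and 7 above (14.6% above, against 51.2% of all genes). Their median was -0.18 against 0.01 over all genes. In edgeR 0 members passed, against 10 genes in all (0.073%), and 3 members had an unadjusted p under 0.05, against 14.2% of all genes. These were Psmd5 (-0.45 ± 0.18; edgeR adjusted p = 0.287), Psme4 (0.58 ± 0.24, higher in KO; adjusted p = 0.292) and Psma4 (-0.38 ± 0.16; adjusted p = 0.309). For 3 members, Psmb8, Psmd11 and Psmd12, all KO males lay below all WT males, against 7.45% of genes in that direction and 14.4% in either. The 19S ATPases had a median of -0.28 (5 of 6 below 0) and the immunoproteasome of -0.02, with Psmb8 alone at -0.30 ± 0.15. Psma8, at most 18 counts a library, had the highest value, 0.85. The count of calls turned on KO male 2, a library against its labelled sex. Without it 5 members passed as lower in KO: Psmd2 (-0.74; edgeR adjusted p = 0.0159), Psmd5 (-0.67), Psmc3 (-0.61), Psma4 (-0.56) and Psmc1 (-0.53), among 734 genes called (5.13%). Without KO male 3 the median of members was -0.04, without all 4 libraries against their labelled sex, which leaves KO male 3 as the only KO male with an assumed common spread, it was -0.40, and 0 members passed in either fit.

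Between the labelled sexes, members of WT mice were mostly lower in females. Of 48 members 43 were below 0 and 5 above (10.4% above, against 50.7% of all genes). Their median log2 fold change (female minus male) was -0.22 against 0.01 over all genes. WT female 2, which enters this comparison, went against its labelled sex. In edgeR 0 members and 0 genes (0%) passed, while 5 members had an unadjusted p under 0.05 (10.4% of members, against 6.52% of all genes). These were Psme2 (-0.45 ± 0.15, a fold of 0.733; edgeR adjusted p = 0.718), Psmg4, a chaperone of core assembly (-0.53 ± 0.23), Psmb8 (-0.32 ± 0.15), Psmb4 (-0.42 ± 0.19) and Psme4 (0.52 ± 0.24, higher in females). For 19 members all WT females lay below all WT males, against 8.13% of genes in that direction, and for 1, Psme4, above them (15.7% of genes in either). The same WT groups enter the comparisons of genotype above, so the 3 sets of values are not separate evidence. With voom and quality weights Psme2 passed (-0.53; limma adjusted p = 0.045), among 366 genes called (2.67%).

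In KO mice 38 of 48 members were above 0 in labelled females (79.2%, against 49.4% of all genes), with a median of 0.10 (-0.01 over all genes). KO male 1, KO male 2 and KO female 1, which enter this comparison, went against their labelled sex. In edgeR 0 members and 0 genes (0%) passed, at an unadjusted p under 0.05 there were 0 members against 5.27% of all genes, and for 0 members did the groups stand apart (7% of all genes). The smallest p belonged to Psmd2 (0.43 ± 0.22; edgeR adjusted p = 0.849), Psmd5 (0.27 ± 0.18) and Psme3 (0.25 ± 0.18). Without KO male 2, Psmd2 passed (0.84; edgeR adjusted p = 0.0144), among 324 genes called (2.26%). Without KO male 3, 22 members were above 0 and the median was -0.01.

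The difference between the labelled sexes in KO minus WT (the value in females less the value in males) was fitted as an interaction. It was above 0 for 44 of 48 members (91.7%, against 49.3% of all genes), with a median of 0.32 (-0.01 over all genes). The median standard error was 0.24. In edgeR 0 members and 0 genes (0%) passed, with 2 members at an unadjusted p under 0.05 (4.17%, against 4.81% of all genes): Psme2 (0.50 ± 0.22; edgeR adjusted p = 0.9) and Psmb8 (0.46 ± 0.21). Psmb4 followed at 0.57 ± 0.27. Each of the 4 groups enters this value, and the 4 libraries against their labelled sex lie in 3 of them. Without those 4 the median was 0.63. That fit leaves KO male 3, the library with the lowest proteasome sum (7054 CPM), as the only KO male.

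**Figure D5:**
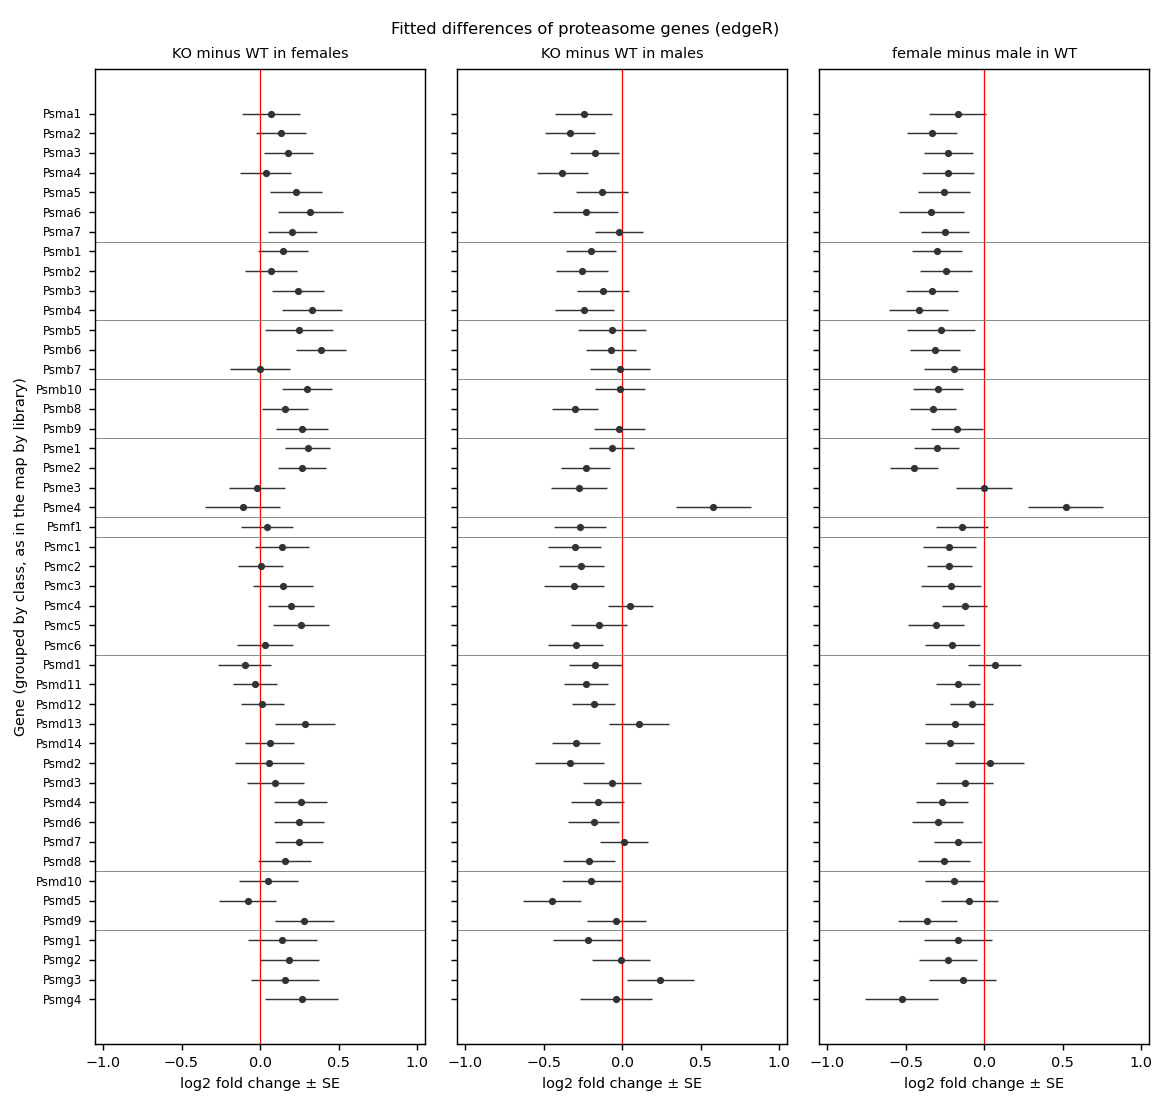
Fitted log2 fold changes (horizontal axis, points) with standard errors (bars) from edgeR for 46 proteasome genes (vertical axis, grouped by class), for KO minus WT in females, KO minus WT in males and female minus male in WT. Most points lie right of 0 in the first panel and left of 0 in the others, and none passes an adjusted p of 0.05.

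Genes around the proteasome gave no call either. Of 24 tested partners and regulators (ubiquitin receptors, deubiquitinases, shuttle proteins and the Nfe2l1 pathway) 0 passed in any of the 6 comparisons, with a median log2 fold change of -0.01 in females and -0.13 in males (KO minus WT). Pomp, the maturation factor of the core, lay between 113 and 163 CPM and differed by 0.11 ± 0.16 in females and -0.06 ± 0.16 in males. Nfe2l1, the factor that drives proteasome genes, lay between 109 (WT male 1) and 190 CPM (WT female 1). WT males 1 and 2, whose proteasome sums were the highest (9809 and 9604 CPM), had its lowest levels, 109 and 118 CPM. KO male 3, whose sum was the lowest (7054 CPM), stood close to them at 120.5 CPM. KO male 2, with a sum of 9463 CPM, stood at 181 CPM. A relation of Nfe2l1 to the sums was not tested. Of 5 tested ubiquitin genes and E1 enzymes 0 passed in any comparison, with medians of 0.12 in females and -0.38 in males.

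Of 17 tested genes of class I antigen processing, which carry the peptides that the immunoproteasome makes, 0 passed in any comparison, with medians of 0.17 in females and 0.13 in males. With the sexes averaged, the smallest adjusted p for KO minus WT was 0.052 (edgeR), for Tpp2, a peptidase that trims proteasome products (-0.45 ± 0.11). Tap1, which pumps peptides into the endoplasmic reticulum and neighbours Psmb9, lay between 500 (WT male 1) and 806 CPM (KO male 3) and differed by 0.28 ± 0.11 on average (edgeR adjusted p = 0.237).

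Of 22 tested interferon response genes 0 passed in any comparison. Their KO minus WT values were above 0 for 20 in females (median 0.64) and for 5 in males (median -0.35), and 2 were above 0 for female minus male in WT (median -0.55). At an unadjusted p under 0.05 there were 11, 5 and 9 of the 22, beside the 7.71%, 14.2% and 6.52% of all genes given above. Irf1, known to induce immunoproteasome genes, lay between 436 and 707 CPM, highest in KO female 3, and differed by 0.14 ± 0.13 (KO minus WT, log2) with the sexes averaged. KO female 3 also had the highest Psmb9, Psmb10 and Psme1. Irf1 was next highest in KO male 3 (638 CPM), where Psmb8 was lowest (809 CPM). Psmb8 and Psme2 were highest in WT male 2, where Irf1 stood at 448 CPM. A relation of Irf1 to these genes was not tested.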

How the data were processed

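Members and gene lists were chosen with earlier results of these data known. Per the labels' protocols, RNA from sorted Tregs was isolated with NucleoSpin XS and made into SMART-Seq v4 and Nextera XT libraries, which do not mark strand. The authors deposited raw counts per gene symbol; the submitters' processing notes name GRCm38, the aligner HISAT2 (2.0.5), featureCounts (1.5.0-p2) of the Subread package, and edgeR. The annotation release and the strand option were not given in the sources used. A table of log2 values of scaled counts, deposited by the authors, served in alternatives.

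Groups came from sample titles. WT male 2 and 3 share the title number 2 and were kept as separate libraries. Genes were filtered with filterByExpr (13692 of 26609 kept, at least 99.81% of each library's counts), scaled by TMM and fitted with 4 group means in edgeR's robust quasi-likelihood model (R 4.3.3, edgeR 4.0.16), two-sided, with Benjamini-Hochberg adjustment over all genes tested and a threshold of 0.05. Standard errors came from the F statistic. Count ratios were compared by two-sided exact permutation tests, and correlations by 100000 permutations or, with fewer than 10 libraries, exactly. Lengths and positions came from GENCODE M21 (GRCm38) and promoter windows from RefSeq (GRCm38.p6). Motifs were searched on both strands. The fit was tested on simulated data. Of 100 genes set to change 2-fold between KO and WT, it recovered 69 with the sexes averaged, 52 in females and 39 in males. Of 100 set to change 4-fold it recovered 91, 83 and 83. Smaller changes, the size of most differences fitted for members, were not simulated.

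Named genes followed a rule: the catalytic, activator, inhibitor and tissue-restricted members, Psmd4, Psmd14 and Psmc3ip; passing members; the 3 members of smallest p per comparison; the highest and lowest level per length of each class; and Nfe2l1, Pomp, Tap1 and Irf1, with 1 further gene not reported here. Other members were named after their values were seen, as were Tpp2 and Ikzf2. Alternatives were DESeq2 1.42.0, RLE scaling, no filter, limma 3.58.1 (voom with quality weights, and trend on the log2 values), a replicate block, leaving out libraries, summing WT male 2 and 3, and other gene lengths.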

Additional observations from a re-analysis of the deposited data

How the results depend on the processing

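The count of members past an adjusted p of 0.05 stayed at 0 in all 6 comparisons with DESeq2, RLE scaling, no filter, limma trend on the authors' log2 values, the sum of WT male 2 and 3, and without the 4 libraries against their labelled sex, a fit that leaves KO males with 1 library assumed to vary like the others. With voom and quality weights it was 7 for KO minus WT in females and 1 for female minus male in WT; the cause was not tested. With each library left out in turn it ranged from 0 to 5 for KO minus WT in males and from 0 to 1 for female minus male in KO, both through KO male 2, and stayed at 0 in the other 4. Over 18 results for single members in single comparisons and 20 settings, 354 of 360 values kept direction and side of the threshold, 6 passed it, and 0 changed sign. These were the 3 members of smallest p in each comparison, picked on the same data, so a kept sign is partly fixed by that choice. Over all members tested, 16 to 31 were above 0 for KO minus WT with the sexes averaged when 1 library was left out.

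With the title number as a replicate block the count of members passing was 0 in every comparison, while genes called for KO minus WT with the sexes averaged went from 206 to 9. The block is a shared number only: same-numbered libraries of different groups had a median correlation of deviations of -0.0385 (18 pairs, -0.266 to 0.092), others -0.0065 (36 pairs).

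Of the 6 log2 count ratios, Psmb10 to Psmb7 for KO minus WT kept its sign in every setting run. Without the 4 libraries, Psmb8 to Psmb5 was 0.03 for KO minus WT and -0.058 for female minus male, and Psmb9 to Psmb6 was 0.059 for KO minus WT. With 1 library left out, Psmb8 to Psmb5 ranged from -0.195 to -0.062 for KO minus WT and from -0.079 to 0.063 for female minus male. Psmb9 to Psmb6 ranged from -0.103 to 0.014 and from -0.013 to 0.104, and Psmb10 to Psmb7 from 0.097 to 0.229 and from -0.035 to 0.106. The adjusted exact permutation p was never under 0.221.

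The correlation of Psmb8 lost its threshold without the 2 farthest libraries (0.698 with Psmb9, 0.643 with Psmb10) and without the 4 libraries (0.673 and 0.762; permutation adjusted p = 0.0638 and 0.0535). Fewer libraries enter those values.

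Levels per length moved with the length, by construction. With coding length Psmb6 was at 250.9, Psmb7 at 81.28, Psmb8 at 1174, Psmb9 at 442.1 and Psmb10 at 229.7 CPM per kb; with the principal transcript they were at 224.5, 58.23, 597.1, 214.8 and 143.5. Both lengths were chosen after seeing the data; the coding length of RefSeq proteins was not run.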
